A study of Homo sapiens with 24 samples.

Results

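BCYRN1 and 8 other non-coding RNAs that are transcribed by RNA polymerase III (Pol III) were followed through 24 RNA-seq libraries of ovarian carcinoma cells. The members are BCYRN1, RN7SK, RN7SL1, RN7SL2, RMRP, RPPH1, VTRNA1-1, RNY1 and RNY3, which are 9 of the 28277 genes listed in each of 2 count tables. They were listed by name, and BCYRN1 was chosen by its counts in PEO4 B cells after 6 h of treatment against untreated PEO4 B cells. Every comparison that uses PEO4 B libraries is therefore given for BCYRN1 as values with no test, and BCYRN1 is left out of the members counted there. Of the 9 members, 8 had at least 1 count in table A and 9 in table B, and 6 (BCYRN1, RN7SK, RN7SL1, RN7SL2, RMRP and RPPH1) passed the filter on low counts in each table.

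The cells were the established ovarian carcinoma lines PEO1 and PEO4. Table A holds 6 libraries of untreated cells: PEO1 A, which the series' design describes as BRCA2- and the sample labels as WT, and PEO4 A, described as BRCA2+. Table B holds 18 libraries of a second pair: PEO1 B, in which BRCA2 function came back by a spontaneous reversion, and PEO4 B, labelled WT. The B cells were untreated or received 5 µM pyridostatin (PDS), a small molecule that binds G-quadruplexes, for 2 h or 6 h. Each of the 8 conditions had 3 libraries, called biological replicates by the submitters, and each line is a single model, so that the spread is between cultures of 1 line.

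Pol III makes short, abundant RNAs that carry no protein code: transfer RNAs, 5S ribosomal RNA, U6 and the RNAs described here. Some of its genes carry their promoter inside the transcribed part, as those of BCYRN1, the 7SL and the vault RNAs do in part, while RN7SK, RMRP, RPPH1, the Y RNAs and U6 are driven from upstream elements that include a TATA box. Pol III stops in a run of T, and its products are not given the poly(A) tail that messenger RNAs carry. BCYRN1, also called BC200 RNA, is a primate RNA that arose from an Alu element, represses translation in neurons and is known from several tumours. The libraries were made after enrichment of polyadenylated RNA, so counts on these genes are of transcripts that passed this step.

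RN7SL1 and RN7SL2 are near-identical copies of the gene for the 7SL RNA, the RNA core of the signal recognition particle (SRP), so their separate counts are uncertain. RN7SL1 also overlaps the RefSeq gene of the ribosomal protein RPS29, and BCYRN1 overlaps that of the long non-coding RNA EPCAM-DT.

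BCYRN1 was nearly absent from the untreated libraries of table B and present in all others. The untreated PEO1 B libraries held 2, 3 and 4 BCYRN1 counts, and the untreated PEO4 B libraries held 1, 1 and 0. After PDS, the PEO1 B libraries held 804, 925 and 680 counts at 2 h and 789, 918 and 853 at 6 h. The PEO4 B libraries held 284, 332 and 405 counts at 2 h and 625, 418 and 563 at 6 h. No treated library came near an untreated one in either line. In table A, by contrast, untreated cells held many BCYRN1 counts, with 458, 482 and 527 in PEO1 A and 169, 159 and 154 in PEO4 A. Values of the 2 tables were scaled separately and are not compared by a test.

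**Figure D1:**
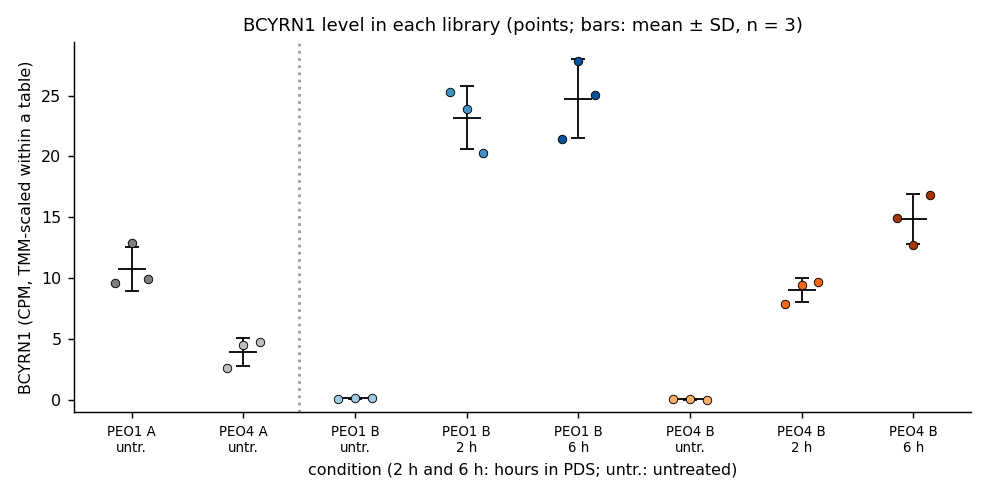
BCYRN1 in CPM (counts scaled to a common library size by TMM within a table) for each library of the 8 conditions, with the mean and SD of 3 libraries. The untreated libraries of table B lie near 0, whereas untreated PEO1 A cells averaged 10.8 CPM and the 4 groups treated with PDS averaged 9.0 to 24.8 CPM.

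Scaled to CPM, BCYRN1 in table B was highest in PEO1 B at 6 h (24.8 ± 3.23 CPM, SD, n = 3) and at 2 h (23.2 ± 2.59 CPM), and the libraries of these 2 groups overlapped. PEO4 B followed with 14.8 ± 2.05 CPM at 6 h and 9.0 ± 0.979 CPM at 2 h, and none of these 2 groups' libraries overlapped with the neighbouring groups. Untreated PEO1 B cells had 0.132 ± 0.0405 CPM and untreated PEO4 B cells 0.0312 ± 0.0272 CPM, which rest on at most 4 counts in a library. In table A, BCYRN1 averaged 10.8 ± 1.81 CPM in PEO1 A and 3.94 ± 1.16 CPM in PEO4 A.

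The rise of BCYRN1 in PEO1 B cells was tested, since the choice of BCYRN1 used PEO4 B libraries. A gene is said to be called where the adjusted p was below 0.05 and the log2 fold change beyond 1 in either direction, which is the fold threshold. In edgeR's quasi-likelihood test, with p adjusted after Benjamini and Hochberg over 17020 genes, BCYRN1 in PEO1 B rose by a log2 fold change of 7.41 (SE 0.240, adjusted p = 9.54e-17) at 2 h and of 7.50 (SE 0.239, edgeR adjusted p = 5.97e-17) at 6 h. SE here and below is the absolute log2 change divided by the square root of the test's F statistic, not a fitted standard error. With so few untreated counts, the SE of BCYRN1 understates the counting error, which the exact intervals below give. None of the 6 untreated libraries of table B reached the filter on low counts (0.290 CPM) for BCYRN1. It was tested only through the treated libraries where it is high, so it had to differ, and these p-values give no independent support. Relative to all counts, the 3 libraries at 2 h together held 158 times as many BCYRN1 counts as the untreated ones (95% exact interval of counting error 82.9 to 345), and those at 6 h 168 times as many (88.2 to 367). Between 2 h and 6 h the log2 change in PEO1 B was 0.09 (SE 0.107), which did not pass the test (edgeR adjusted p = 0.704). In PEO4 B the fitted log2 values, with no test, were 8.01 at 2 h and 8.73 at 6 h against untreated cells and 0.72 at 6 h against 2 h. In all, the PEO4 B libraries held 2 BCYRN1 counts untreated, 1021 at 2 h and 1606 at 6 h.

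BCYRN1 was lower in PEO4 than in PEO1 in every group of libraries that could be set side by side. In table A the log2 fold change of PEO4 A against PEO1 A was -1.47 (SE 0.221, edgeR adjusted p = 0.000106), and the 3 libraries of each line did not overlap. In table B the log2 differences of PEO4 B against PEO1 B, given with no test, were -1.36 at 2 h, -0.74 at 6 h and -1.97 untreated, the last on 2 and 9 counts in all. EPCAM-DT, whose gene spans BCYRN1, had at most 12 counts in any library of table B and between 3 and 7 in the untreated ones.

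Total counts and the share of ribosomal RNA differed without overlap between treated and untreated libraries of table B. In this design they cannot be told apart from PDS for any rise or fall after treatment. Their part in the BCYRN1 result and in the changes of the other members was not tested. The untreated libraries of table B held 18699929 to 22375644 counts and the treated ones 33260167 to 43713947. Genes for ribosomal RNA took 0.217% to 0.474% of all counts in untreated libraries and 0.0163% to 0.0369% in treated ones, against at most 0.000208% in table A. Of the 20 ribosomal RNA genes tested, 15 were called lower in each of the 4 comparisons of treated with untreated cells, in which 7.57% to 22.6% of all genes were called. The list holds numbered copies of the same gene, so the 15 may not be separate measurements. RNA18SN1, a copy of the gene for 18S ribosomal RNA, fell from 171, 114 and 180 counts in untreated PEO1 B libraries to 4, 8 and 5 at 2 h. Between 2 h and 6 h, where depth and ribosomal RNA share overlapped, no ribosomal RNA gene was called in PEO1 B or in PEO4 B.

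**Figure D2:**
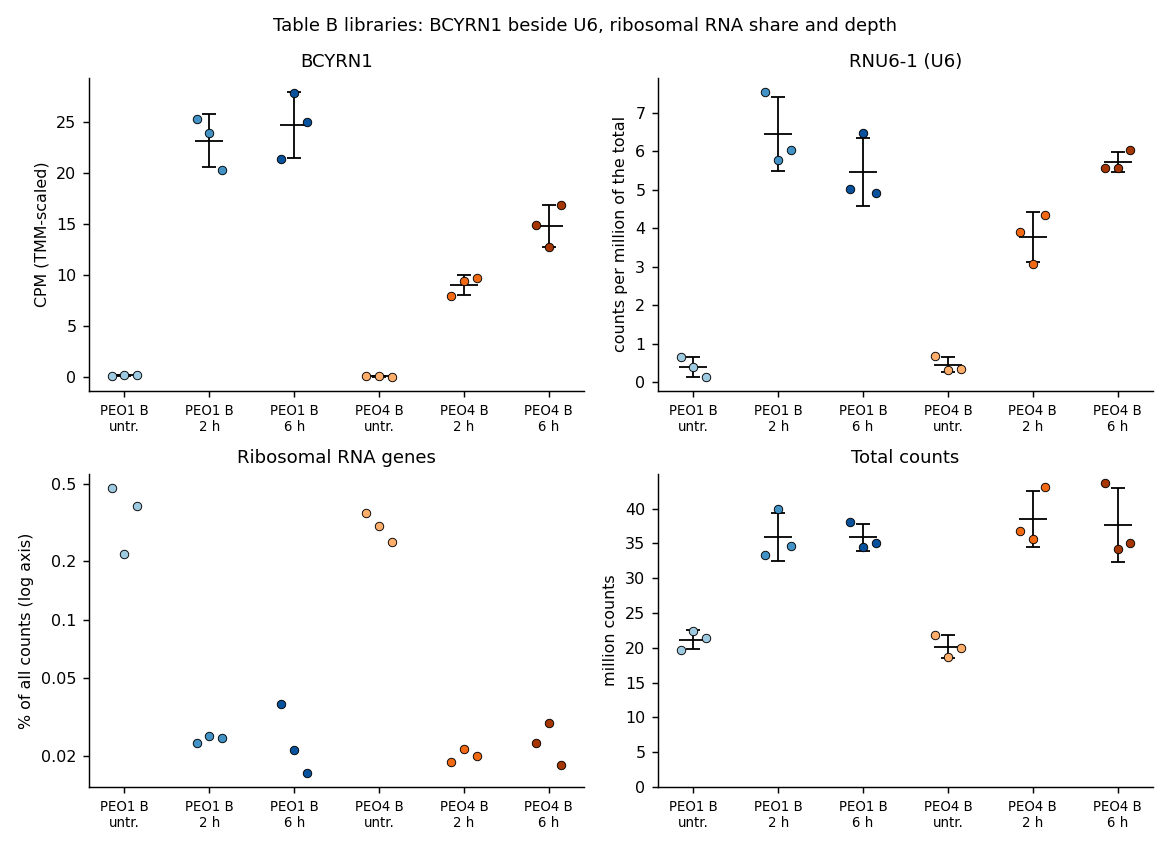
BCYRN1 (CPM), RNU6-1 (CPM of the plain library total), the share of counts on ribosomal RNA genes (log axis) and the total counts for each library of table B, with mean and SD of 3 libraries except for the share. In both lines the untreated libraries were lower in BCYRN1, RNU6-1 and total counts and higher in ribosomal RNA share (0.217% to 0.474%) than all treated libraries (0.0163% to 0.0369%).

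U6 RNA of the spliceosome, another Pol III product without a poly(A) tail, moved like BCYRN1. RNU6-1, 1 of its genes, is no member. RNU6-1 had 13, 9 and 3 counts in untreated PEO1 B libraries, 251, 230 and 209 at 2 h and 191, 223 and 172 at 6 h. In PEO4 B it had 15, 6 and 7 counts untreated, 143, 109 and 188 at 2 h and 243, 190 and 211 at 6 h. The treated and untreated libraries did not overlap. RNU6-1 rose by a log2 fold change of 4.16 (SE 0.280, edgeR adjusted p = 2.66e-11) at 2 h and 3.92 (SE 0.285, edgeR adjusted p = 6.97e-11) at 6 h in PEO1 B. In PEO4 B it rose by 3.15 (SE 0.291, edgeR adjusted p = 1.13e-09) at 2 h and 3.78 (SE 0.278, edgeR adjusted p = 1.39e-11) at 6 h. The 5 U6 genes RNU6-1, RNU6-2, RNU6-7, RNU6-8 and RNU6-9 had equal counts in all 18 libraries of table B, so they stand for 1 measurement, and they were at 0 in all 6 libraries of table A. A count of 0 in a library of table A allows up to 0.0922 CPM, for counting error only.

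Other Pol III RNAs outside the members were scarce. Of 57 such genes in the tables, 51 were at 0 in all libraries of table A and 43 in all of table B. RNU6ATAC, the minor-spliceosome counterpart of U6, had 0 counts in all 6 untreated libraries of table B and between 2 and 10 in each of the 12 treated ones, but up to 24 in untreated PEO1 A. VTRNA1-3, a vault RNA, had 0 counts in 5 of the 6 untreated libraries of table B and between 2 and 11 in each treated library. RN7SL3, a further 7SL copy, had 2, 1 and 2 counts in untreated PEO4 B, 12, 17 and 12 at 2 h and 12, 9 and 6 at 6 h. In PEO1 B, RN7SL3 had 12, 5 and 6 counts untreated, 16, 41 and 41 at 2 h and 23, 16 and 14 at 6 h, its CPM overlapped between treated and untreated libraries, and its log2 change at 6 h was 0.57 (edgeR adjusted p = 0.276). Of the 6 genes of this list that were tested, 6 were called higher at 2 h in each line and at 6 h in PEO4 B, and 5 at 6 h in PEO1 B. Of all genes, 7.57% and 8.13% were called at 2 h and 6 h in PEO1 B, and 17.4% and 22.6% in PEO4 B. However, 5 of the 6 genes are the equal U6 copies.

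RN7SK, the scaffold that holds the elongation factor P-TEFb inactive, went the other way. RN7SK had 47, 61 and 48 counts in untreated PEO1 B libraries, 26, 13 and 35 at 2 h and 26, 21 and 20 at 6 h. In PEO4 B it had 62, 42 and 63 counts untreated, 47, 72 and 56 at 2 h and 43, 35 and 20 at 6 h. Scaled to CPM, all treated libraries lay below all untreated ones of their line. RN7SK fell by 1.67 on the log2 scale (SE 0.293, edgeR adjusted p = 3.75e-05) at 2 h and fell by 1.83 (SE 0.297, edgeR adjusted p = 1.38e-05) at 6 h in PEO1 B, and fell by 1.51 (SE 0.279, edgeR adjusted p = 3.55e-05) at 6 h in PEO4 B. At 2 h in PEO4 B the log2 change was -0.72 (edgeR adjusted p = 0.0171), which missed the fold threshold. At 2 h RN7SK was higher in PEO4 B than in PEO1 B by 1.11 (SE 0.290, edgeR adjusted p = 0.00142). That difference was 0.73 without PEO1 B replicate 2 at 2 h and 0.88 without PEO4 B replicate 2 at 2 h, both under the fold threshold. The difference between the lines in the 2 h response was 0.95 (edgeR adjusted p = 0.0609), but 1.30 without PEO1 B replicate 3 at 2 h and 1.04 without untreated PEO4 B replicate 3, which both passed.

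The SRP RNAs RN7SL1 and RN7SL2, which help to bring ribosomes to the endoplasmic reticulum, were not called in any of the 12 comparisons. RN7SL1 had 280, 197 and 240 counts in untreated PEO1 B libraries, 506, 508 and 476 at 2 h and 716, 419 and 392 at 6 h. In PEO4 B it had 257, 90 and 193 counts untreated, 447, 483 and 526 at 2 h and 480, 428 and 411 at 6 h. The total counts of the treated libraries were higher too. RN7SL1 in CPM was 10.7 ± 2.64 in untreated PEO1 B against 14.4 ± 1.41 at 2 h, and 8.18 ± 3.36 in untreated PEO4 B against 12.9 ± 0.674 at 2 h. The groups overlapped in PEO1 B, while all treated PEO4 B libraries lay above the untreated ones. The log2 change of RN7SL1 was 0.44 and 0.45 in PEO1 B, and 0.64 and 0.57 in PEO4 B, at 2 h and 6 h. The largest of these, at 2 h in PEO4 B, had an edgeR adjusted p of 0.0487 and missed the fold threshold. For RN7SL2 the log2 change lay between 0.14 and 0.35 in these 4 comparisons. RPS29, which overlaps RN7SL1 and was chosen as its neighbour, rose by 1.64 (SE 0.069, edgeR adjusted p = 8.18e-15) at 2 h in PEO1 B and by 1.74 (SE 0.069, edgeR adjusted p = 3.35e-16) at 2 h in PEO4 B.

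**Figure D3:**
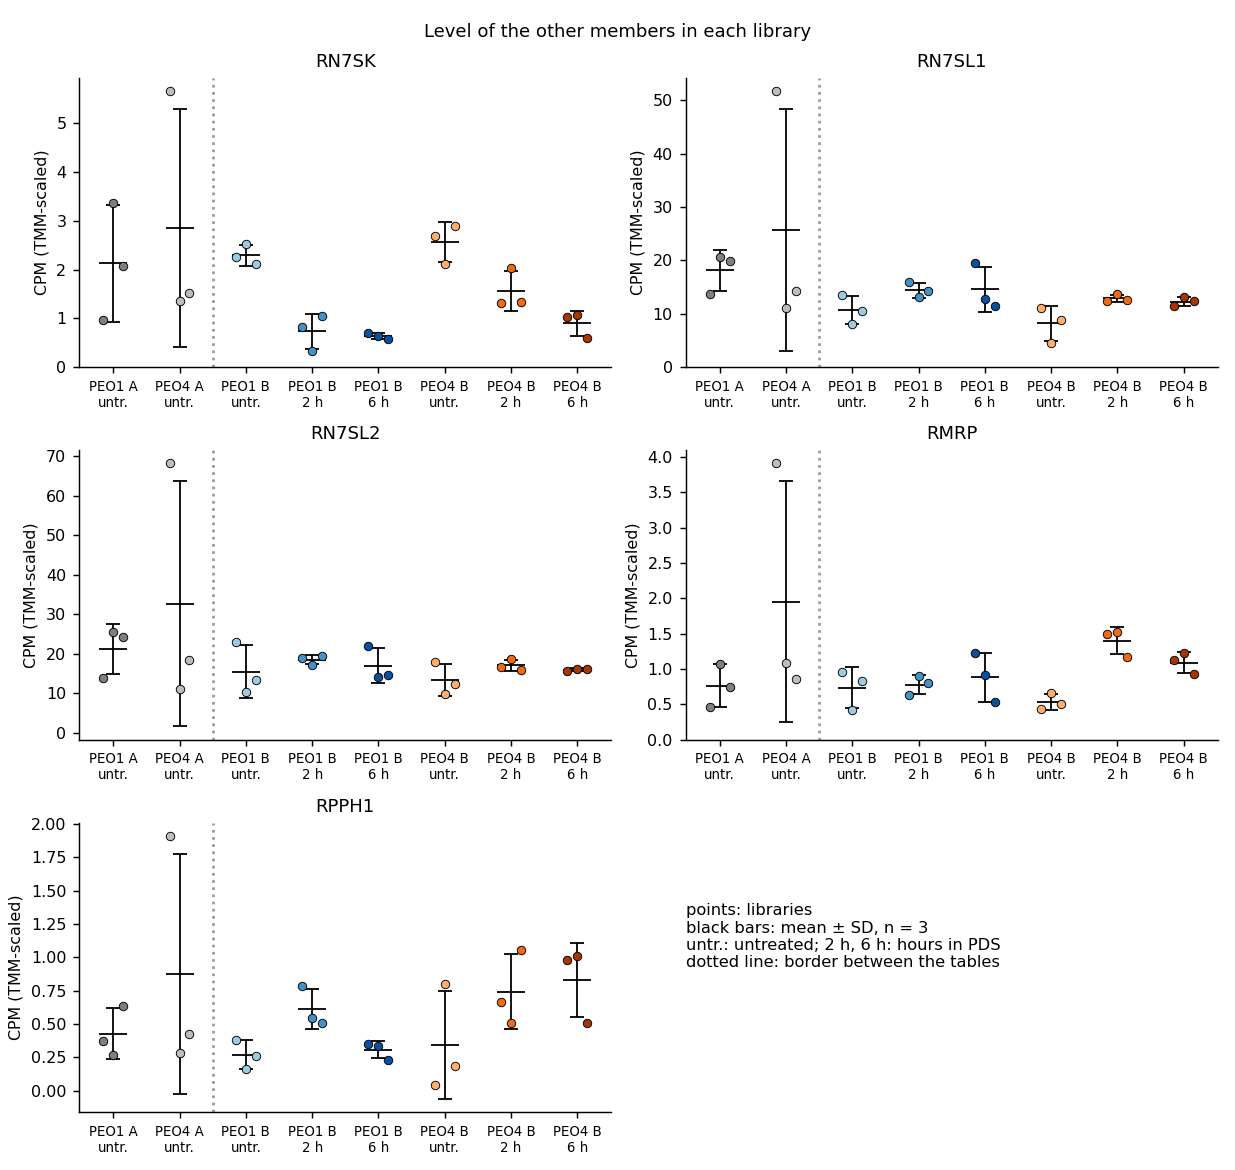
CPM of RN7SK, RN7SL1, RN7SL2, RMRP and RPPH1 in each library of the 8 conditions, with mean and SD of 3 libraries, untr. standing for untreated. RN7SK is lower after PDS, RN7SL2 overlaps between treated and untreated libraries, RMRP and RPPH1 have higher means after PDS than untreated in both lines, and 1 library of PEO4 A (replicate 1) stands above the others in all 5 plots.

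RMRP and RPPH1 are the RNA subunits of RNase MRP, which cuts precursor ribosomal RNA, and of RNase P, which trims transfer RNA precursors. After PDS in PEO4 B, RMRP rose, while RPPH1 had higher means in groups whose libraries overlapped with the untreated ones. RMRP had 10, 13 and 11 counts in untreated PEO4 B libraries, 54, 54 and 49 at 2 h and 47, 40 and 31 at 6 h, and treated and untreated libraries did not overlap. In PEO1 B, RMRP had 20, 10 and 19 counts untreated, 20, 35 and 27 at 2 h and 45, 30 and 18 at 6 h, and the CPM of these groups overlapped. RMRP rose in PEO4 B by 1.40 (SE 0.328, edgeR adjusted p = 0.000601) at 2 h and by 1.04 (SE 0.338, edgeR adjusted p = 0.00827) at 6 h. The log2 change in PEO1 B was 0.11 at 2 h and 0.29 at 6 h. The 2 h response of RMRP was larger in PEO4 B than in PEO1 B by 1.29 (SE 0.473, edgeR adjusted p = 0.0347). That call was lost without replicate 1 (1.05) or 3 (1.17) of untreated PEO1 B, 1 (1.15) or 3 (1.30) of PEO1 B at 2 h, 1 (1.15) or 3 (1.26) of untreated PEO4 B, and 1 (1.23) or 2 (1.21) of PEO4 B at 2 h. The 6 h rise of RMRP was under the fold threshold without untreated PEO4 B replicate 1 (0.92) and without PEO4 B replicate 2 at 6 h (0.97), and when scaled by library totals (0.89) or upper quartiles (0.93).

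RPPH1 had 1, 16 and 4 counts in untreated PEO4 B libraries, 24, 18 and 44 at 2 h and 41, 33 and 17 at 6 h. In PEO1 B it had 8, 4 and 6 counts untreated, 25, 21 and 17 at 2 h and 13, 11 and 8 at 6 h. In CPM the treated and untreated PEO4 B groups overlapped, since untreated replicate 2 (0.804 CPM) stood above the other two, while in PEO1 B the 2 h libraries lay above the untreated ones. The fitted log2 change of RPPH1 in PEO4 B was 1.19 (SE 0.518, edgeR adjusted p = 0.0475) at 2 h and 1.34 (SE 0.513, edgeR adjusted p = 0.0236) at 6 h. At 6 h RPPH1 was also higher in PEO4 B than in PEO1 B, by 1.43 (SE 0.465, edgeR adjusted p = 0.00885). The log2 change in PEO1 B was 1.18 at 2 h (edgeR adjusted p = 0.0782) and 0.21 at 6 h, the former passing (adjusted p = 0.0141) in an edgeR fit of only the groups compared. The calls of RPPH1 in PEO4 B rest on few counts. RPPH1 reached the filter on low counts in 2 of the 6 untreated and 11 of the 12 treated libraries of table B, so it too was tested only through treated libraries and its calls give no independent support. At 2 h the rise was 0.64 without untreated replicate 1, 0.91 without untreated replicate 3, 1.27 without replicate 1 at 2 h and 0.84 without replicate 3 at 2 h, and none of these passed. The 2 h call was also lost under library totals (edgeR adjusted p = 0.0771), DESeq2's size factors (0.0516), upper quartiles (0.0609), DESeq2's Wald test (0.0565), the replicate block (0.0562) and a fit of only the groups compared (0.171), and the 6 h call under the last (0.111). At 6 h it was 0.79 without untreated replicate 1, 1.06 without untreated replicate 3, and 1.20 without replicate 1 or replicate 2 at 6 h, and none of these passed. The difference between the lines in the 2 h response was 0.0085 (edgeR adjusted p = 0.9999). In the 6 h response it was 1.13 (edgeR adjusted p = 0.274), and 2.65 (edgeR adjusted p = 0.0108) without untreated PEO4 B replicate 2.

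The 100 bases before the starts of RMRP and RPPH1 are shown because both genes are known to be driven from upstream elements. TATAA is in capitals.
RMRP, chr9:35658018-35658117, minus strand: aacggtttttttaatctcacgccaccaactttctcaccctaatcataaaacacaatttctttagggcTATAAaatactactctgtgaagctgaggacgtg
RPPH1, chr14:20343408-20343507, minus strand: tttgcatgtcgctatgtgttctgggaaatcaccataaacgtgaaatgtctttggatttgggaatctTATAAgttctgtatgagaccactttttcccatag
TATAA began 33 bases before the start of RMRP and 34 bases before that of RPPH1. It was found in this window on the given strand for 5 of the 9 members, against 6.72% of the same windows before 35116 RefSeq genes (GRCh38.p14), and on either strand for 6 of 9 against 9.0%. None of the members is among those RefSeq windows, and a match is a description of the letters only.

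VTRNA1-1, RNY1 and RNY3, a vault RNA and 2 Y RNAs of Ro particles, were too scarce to test. VTRNA1-1 had at most 2 counts in any library of table B and 0 in 5 of the 6 libraries of table A, with 4 in PEO4 A replicate 1. RNY1 had at most 6 counts in table B, 2 in PEO1 A replicate 2 and 14 in PEO4 A replicate 1. RNY3 was at 0 in table A, which allows up to 0.0111 CPM over the 6 libraries together, and had 1 count in each of 2 libraries of PEO4 B at 2 h.

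Between the lines in untreated cells, BCYRN1 was called in table A, and 4 of the other 5 values there changed sign without 1 library. In table A, 1 of 6 tested members was called, against 25.8% of all genes tested, and this was BCYRN1. PEO4 A replicate 1, the library with the most counts of table A (63882077), stood apart. It held 368 counts of RN7SK against 48 and 50 in the other two libraries of PEO4 A, and 3360 of RN7SL1 against 388 and 466. It also held 4426 counts of RN7SL2 against 396 and 605, 254 of RMRP against 38 and 28, and 124 of RPPH1 against 10 and 14. BCYRN1 did not follow it, with 169 counts there against 159 and 154. With that library the log2 change of PEO4 A against PEO1 A was 0.49 for RN7SK, 0.53 for RN7SL1, 0.64 for RN7SL2 and 1.09 for RPPH1. Without it the values were -0.54, -0.51, -0.51 and -0.29. RMRP, at 1.43 (edgeR adjusted p = 0.0606) with all libraries, was 0.37 without PEO4 A replicate 1 and passed without replicate 2 (1.71) and without replicate 3 (1.77), and by DESeq2's Wald test (1.38, adjusted p = 0.0169). In table B, 0 of the 5 members counted were called between the untreated lines, against 24.8% of all genes, and at an unadjusted p under 0.05 the edgeR count was 0 and DESeq2 called 0.

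Read against all genes, the members' calls after PDS were as follows. In PEO1 B, 2 of 6 tested members were called at 2 h, against 7.57% of all genes, and 2 of 6 at 6 h, against 8.13%. These were BCYRN1, which rose, and RN7SK, which fell, at both times. In PEO4 B, 2 of the 5 members counted were called at 2 h, against 17.4% of all genes, and 3 of 5 at 6 h, against 22.6%. These were RMRP and RPPH1, called higher at both times, and RN7SK, called lower at 6 h. The RPPH1 calls at both times were lost without single libraries, as given above. The median log2 change of the members counted was 0.35 and 0.25 in PEO1 B and 0.64 and 0.57 in PEO4 B at 2 h and 6 h, beside medians of all genes between -0.03 and 0. Since BCYRN1 and RPPH1 passed the filter through treated libraries, these counts and medians are a description only.

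**Figure D4:**
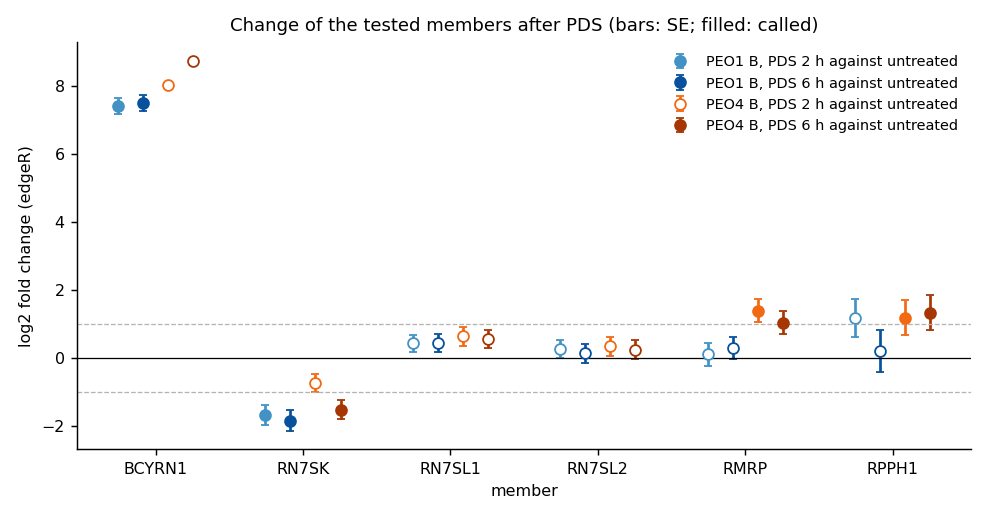
Log2 fold change (edgeR) of the 6 tested members after 2 h or 6 h of PDS against untreated cells of PEO1 B and PEO4 B, with SE; filled points were called, dashed lines mark the fold threshold, and BCYRN1 in PEO4 B has no SE because its choice used these libraries. BCYRN1 lies between 7.41 and 8.73, RN7SK below 0, and RN7SL1 and RN7SL2 between 0 and 1 in all 4 comparisons.

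Between the time points no member was called: 0 of 6 in PEO1 B, against 0.170% of all genes, and 0 of 5 in PEO4 B, against 12%. RN7SK came nearest, at -0.78 (edgeR adjusted p = 0.0177) at 6 h against 2 h in PEO4 B. At an unadjusted p under 0.05 edgeR counted 0 member in PEO1 B and 1 in PEO4 B, and DESeq2 called 0 and 0. At 2 h of PDS, RN7SK was the 1 of 5 members called between the lines (26.5% of all genes), and at 6 h RPPH1 was (23.0%). For the difference between the lines in response, RMRP was the 1 of 5 called at 2 h (11% of all genes), and 0 of 5 were called at 6 h (14.8%), where edgeR counted 0 at an unadjusted p under 0.05 and DESeq2 called 0.

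Levels of different members were compared only per length, as CPM per kilobase of the RefSeq gene. The order is of transcripts that passed the poly(A) enrichment and need not be that of the RNAs in the cells. In untreated PEO1 B the order was RN7SL2 (51.9 ± 22.4), RN7SL1 (35.8 ± 8.84), RN7SK (6.91 ± 0.630), RMRP (2.72 ± 1.06), RPPH1 (0.794 ± 0.320) and BCYRN1 (0.659 ± 0.202). The SDs of RN7SL2 and RN7SL1 overlapped, as did those of RPPH1 and BCYRN1. At 6 h of PDS in PEO1 B, BCYRN1 was first (124 ± 16.1), followed by RN7SL2 (56.8 ± 14.9) and RN7SL1 (48.6 ± 14.3). In PEO4 B at 6 h, BCYRN1 (74.2 ± 10.3) also stood above RN7SL2 (53.6 ± 1.34) and RN7SL1 (41.0 ± 2.70). In PEO4 B at 2 h, BCYRN1 (45.0 ± 4.89) lay below RN7SL2 (57.2 ± 4.69) and within the SD of RN7SL1 (43.2 ± 2.25). In PEO1 A, BCYRN1 (53.9 ± 9.05) lay between RN7SL1 (60.6 ± 12.9) and RN7SK (6.42 ± 3.62), within the SD of RN7SL1. In PEO4 A, BCYRN1 (19.7 ± 5.82) lay below the means of RN7SL1 (85.9 ± 75.8) and RN7SL2 (109 ± 104), which hold the library that stood apart.

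The genes whose log2 CPM followed that of BCYRN1 most closely over the 18 libraries of table B were SAP18 (Pearson r 0.988), NDUFS6 (0.986), CLNS1A (0.986), LTV1 (0.986) and PPIH (0.985). All 5 code for proteins. The order depends on the scaling, since under library totals NDUFS6 had rank 1, SAP18 rank 3 and CLNS1A rank 10. These are descriptions over libraries that share their treatment, depth and ribosomal RNA share with the groups, and carry no test. RNU6-1 had an r of 0.961 and RN7SK of -0.858, while RN7SL1 had 0.657, RMRP 0.535, RPPH1 0.532 and RN7SL2 0.444.

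Among short genes, more were called lower than higher after PDS in PEO1 B. Of the 496 tested genes that span at most 150 bases in RefSeq, the class of U6, 2.62% were called higher and 29.0% lower at 2 h in PEO1 B, where 1.09% and 5.52% of the 15700 genes over 1000 bases were. The 5 equal U6 copies are counted separately among the 13 genes of this class called higher. They are also among those called higher at 6 h in PEO4 B below. Of the 26 other tested genes over 150 and up to 300 bases, the class of BCYRN1, which is left out here, 2 were called higher and 7 lower at 2 h in PEO1 B, where 7.57% of all genes were called. At 2 h in PEO4 B, 4 of these 26 were called higher and 4 lower (17.4% of all genes called), and at 6 h 4 higher and 2 lower (22.6%). Of the shortest class, 5.44% were called higher and 21.4% lower at 6 h in PEO4 B, where 6.23% and 16% of the genes over 1000 bases were. Of 8 tested small RNAs that Pol II makes without a poly(A) tail, 0 were called at 2 h in PEO1 B by edgeR (7.57% of all genes), and at 6 h SNORD3A, the U3 RNA that guides ribosomal RNA processing, was called higher (1.16, SE 0.477, edgeR adjusted p = 0.0439), against 8.13%. In PEO4 B at 2 h, 1 was called higher, SNORD3A (2.17, SE 0.737, edgeR adjusted p = 0.0124). SNORA73B, a small nucleolar RNA, was the 1 called lower (-1.46, SE 0.405, edgeR adjusted p = 0.0028), so that 2 of 8 stand against 17.4% of all genes. At 6 h in PEO4 B, 2 of 8 were called, against 22.6%, SNORD3A higher (1.76, edgeR adjusted p = 0.048) and SNORD118, the U8 RNA, lower (-2.32, edgeR adjusted p = 0.00464). Under library totals the counts at 6 h were 0 in PEO1 B and 1 in PEO4 B. Of 31 tested histone mRNAs that lack a poly(A) tail, 4 were called higher and 0 lower at 2 h in PEO1 B (7.57% of all genes called) and 3 higher and 0 lower at 6 h (8.13%). In PEO4 B, 2 histone mRNAs were called higher and 10 lower at 2 h (17.4%), 8 higher and 5 lower at 6 h (22.6%), and 6 higher and 0 lower at 6 h against 2 h (12%). H4C3 was the histone gene that rose most at 2 h in PEO4 B (3.23, SE 0.458, edgeR adjusted p = 1.11e-06), and H1-2 the one that fell most (-2.81, SE 0.174, edgeR adjusted p = 9.39e-13). SNORD3A, H4C3 and RN7SL3 reached the filter on low counts in 0, 2 and 1 of the 6 untreated libraries of table B, so they too were tested through treated libraries.

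Most genes that code for subunits of Pol III had small positive log2 changes after PDS in both lines, and few passed the fold threshold. Of 18 tested subunit genes, 0 were called in PEO1 B at either time, against 7.57% and 8.13% of all genes at 2 h and 6 h, with all 18 log2 values above 0 (0.11 to 0.94 at 2 h and 0.17 to 0.94 at 6 h). At 2 h in PEO4 B, 2 of 18 were called higher and 0 lower, against 17.4% of all genes called, and at 6 h 4 were called higher and 0 lower, against 22.6% (POLR3G, POLR3K at 1.35, POLR3B at 1.18 and POLR2F, shared with Pol I and Pol II, at 1.29). Under library totals 1 was called at 2 h. The difference between the lines in response was called for 0 of 18 at 2 h (11% of all genes) and for 2 at 6 h (14.8% of all genes), POLR3G higher and POLR3GL lower in PEO4 B. The median log2 change of the list was 0.46 and 0.53 in PEO1 B and 0.52 and 0.77 in PEO4 B at 2 h and 6 h. Medians of all genes lay between -0.03 and 0. Small rises were not particular to this list, since all 6 tested SRP protein genes rose with an edgeR adjusted p below 0.05 in these 4 comparisons. Genes of the 7SK particle were mixed in PEO4 B, with 2 higher and 4 lower at that level at 2 h. POLR3G, the subunit of the Pol III form found in stem and tumour cells, had 264, 241 and 207 counts in untreated PEO4 B, 1158, 906 and 1547 at 2 h and 2138, 1623 and 1659 at 6 h. POLR3G rose by 1.52 (SE 0.103, edgeR adjusted p = 8.67e-12) at 2 h and 2.18 (SE 0.102, edgeR adjusted p = 9.84e-15) at 6 h in PEO4 B, and its 6 h response was larger there than in PEO1 B by 1.52 (SE 0.140, edgeR adjusted p = 7.49e-09). POLR3GL, which takes the same place in the other form of Pol III, had 98, 91 and 101 counts in untreated PEO4 B, 327, 441 and 327 at 2 h and 133, 89 and 108 at 6 h. POLR3GL fell between 2 h and 6 h in PEO4 B by 1.68 (SE 0.146, edgeR adjusted p = 8.84e-10).

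Of 19 tested genes for initiation factors and the Pol III repressor MAF1, 1 was called at 2 h in each line (7.57% of all genes in PEO1 B and 17.4% in PEO4 B), and this was BDP1, a TFIIIB subunit. BDP1 fell by 1.17 (SE 0.321, edgeR adjusted p = 0.00359) in PEO1 B and by 1.39 (SE 0.335, edgeR adjusted p = 0.0008) in PEO4 B. At 6 h in PEO4 B GTF3C6, a TFIIIC subunit, was the 1 of 19 called (22.6% of all genes), and it rose by 1.47 (SE 0.136, edgeR adjusted p = 1.05e-07). MAF1 was higher in PEO4 B than in PEO1 B in untreated cells (1.58, SE 0.063, edgeR adjusted p = 5.28e-17). It was not called between PEO4 A and PEO1 A, nor after PDS against untreated cells in either line.

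**Figure D5:**
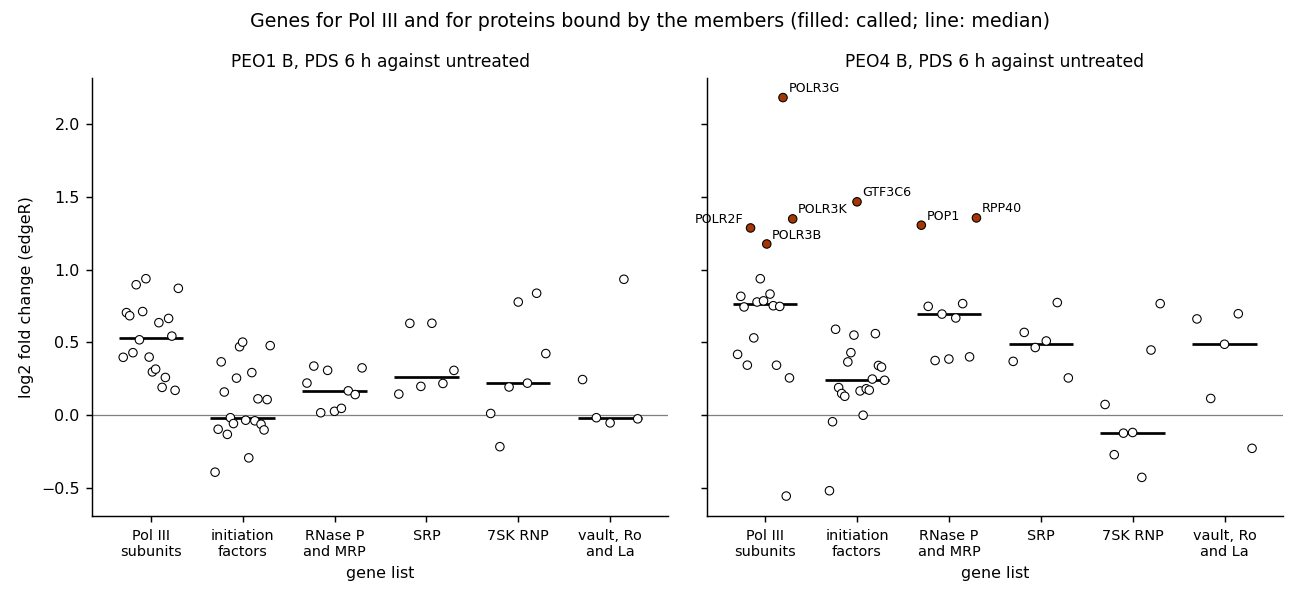
Log2 fold change at 6 h of PDS against untreated cells for genes of Pol III and of proteins that bind the members, by list, in PEO1 B and PEO4 B; each point is a gene, filled and named where called, and the line is the list's median. In PEO1 B no gene of these 6 lists was called, and in PEO4 B 7 were called higher, with POLR3G at 2.18.

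The protein partners of the members were read against the same shares of all genes. Of 9 tested protein genes of RNase P and RNase MRP, which bind RMRP and RPPH1, 0 were called in PEO1 B (7.57% and 8.13% of all genes at 2 h and 6 h), 0 at 2 h in PEO4 B (17.4%), and 2 were called higher at 6 h in PEO4 B, a share near that of all genes called (22.6%). RPP40 rose there by 1.36 (SE 0.132, edgeR adjusted p = 3.84e-09). POP1 rose between 2 h and 6 h in PEO4 B by 1.25 (SE 0.068, edgeR adjusted p = 5.24e-13), and its 6 h response was larger there than in PEO1 B by 1.09 (SE 0.096, edgeR adjusted p = 2.5e-09). None of the 6 tested SRP protein genes, the 7 genes of the 7SK particle and P-TEFb, or the 5 vault, Ro and La genes was called at 2 h or 6 h against untreated cells in either line. The median log2 change of the 7SK list was 0.19 and 0.22 in PEO1 B and -0.21 and -0.12 in PEO4 B at 2 h and 6 h, beside the falls of RN7SK itself. HEXIM2, a 7SK-bound inhibitor of P-TEFb, was higher in untreated PEO4 B than in PEO1 B (1.30, SE 0.101, edgeR adjusted p = 2.75e-11), the 1 of 7 called (24.8% of all genes). Of these 7, 0 were called between PEO4 A and PEO1 A (25.8% of all genes). Between the B lines 0 were called at 2 h (26.5%) or 6 h (23.0%) of PDS.

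All 10 ovarian carcinoma markers, among them PAX8, WT1, EPCAM and KRT7, had at least 1452 counts in every library. Of these 10, 1 was called lower after PDS at each time in PEO1 B, MUC16 (-2.29 at 2 h and -2.59 at 6 h), against 7.57% and 8.13% of all genes called. In PEO4 B, MSLN was called lower at 2 h (-1.23), against 17.4% of all genes called, and MUC16 (-3.40) and MSLN (-2.29) at 6 h, against 22.6%. None of the 10 was called higher after PDS in either line. Under library totals 2 of the 10 were called at 2 h in PEO4 B. Of 10 markers of stromal, endothelial and blood cells, CD3E and MS4A1 were at 0 in all 24 libraries and PTPRC had at most 2 counts, while COL1A1, a collagen of fibroblasts, had 324 to 1563 counts in table A and 85 to 614 in table B. CD14, a marker of monocytes, had 34 to 294 counts and was at 0 in none of the 24 libraries. The summed level of the list of other cell types was 25.4 to 44.4 CPM in untreated PEO4 B, 11.8 to 14 at 2 h and 4.37 to 5.83 at 6 h. In PEO4 B, 4 of its 5 tested genes were called lower at each time, against 17.4% of all genes called at 2 h and 22.6% at 6 h. The fifth, CD14, was called higher there at 2 h (1.57, SE 0.171, edgeR adjusted p = 1.69e-08). In PEO1 B the summed level was 10.2 to 14.1 CPM untreated and 6.94 to 8.50 after PDS, against 36.4 to 38.7 in PEO1 A and 7.55 to 12.9 in PEO4 A. Of the 5 tested genes, 0 were called at 2 h in PEO1 B and 1 lower at 6 h, against 7.57% and 8.13% of all genes. Under library totals these counts were 1 and 2. The part of the genes of both lists in the members' changes was not tested.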

How the data were processed

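RNA-seq counts per gene were used as deposited, in 2 tables of 24 libraries. Per the labels, the authors used FastQC, fastp, STAR and featureCounts on hg38, with no version given, after poly(A) enrichment. The kit was named for table A only, and the A cells' medium also held sodium pyruvate. Among counts up to 100, 65.4% to 70.1% were even in table A and 43.8% to 46.1% in table B, so the tables may count reads differently and were never tested against each other.

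Each table was fitted with edgeR 4.0.16 in R 4.3.3 (TMM, filterByExpr with a minimum count of 10, robust quasi-likelihood test), with all its groups in 1 model. Calls needed an adjusted p (Benjamini-Hochberg) below 0.05 together with a log2 fold change beyond 1. Each SE was derived from the log2 change and the F statistic of its test. DESeq2 1.42.0 and other scalings, filters, thresholds and left-out libraries were alternatives. The fitting was tested on simulated data. All members, the genes that overlap or neighbour them, the 5 genes most like BCYRN1, and the called gene with the largest rise and fall of each list were eligible to be named, and others were chosen after their values were seen. The members and lists were chosen with earlier results of these data known. Intervals and floors (3 counts) cover counting error only. Upstream sequences came from GRCh38, with starts from GENCODE v44, and some other sequences are not reported here.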

Additional observations from a re-analysis of the deposited data

Results flagged for a closer look

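The following differences between the lines in the response to PDS passed edgeR's test of the difference itself (PEO4 B minus PEO1 B, Benjamini-Hochberg adjusted). RMRP differed by 1.29 on the log2 scale at 2 h (adjusted p = 0.0347), and RMRP was higher in 3 of 3 treated PEO4 B libraries than in any untreated one. That call was lost in 8 of the 12 fits that left out a library of these groups (edgeR adjusted p 0.0516 to 0.118), and RMRP was not tested with a minimum count of 50. At 6 h POLR3G differed by 1.52 (edgeR adjusted p = 7.49e-09), POLR3GL by -1.10 (edgeR adjusted p = 0.000293) and POP1 by 1.09 (edgeR adjusted p = 2.5e-09). No formal outlier test was run on groups of 3 libraries.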

How the results depend on the processing

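Of the alternatives' member fold changes, 1101 kept their direction and side of the threshold, 29 lost a call, 15 gained one, 41 turned and 5 untested values moved. These 5 were values of BCYRN1 without untreated PEO4 B replicate 3. In PEO4 B the log2 change was then 7.48 at 2 h and 8.21 at 6 h, and that of untreated PEO4 B against PEO1 B -1.44. The differences in response went from 0.61 to 0.076 at 2 h and from 1.23 to 0.70 at 6 h. Of the counts of members called, 169 stayed within 1.5 times and 34 did not. The cause was not tested. BCYRN1 stayed called between PEO4 A and PEO1 A. Between PEO4 A and PEO1 A, DESeq2's Wald test called 2 members, and leaving out a library gave 1 to 2. At 2 h in PEO4 B the count was 1 under library totals, DESeq2's size factors, upper quartiles, DESeq2's Wald test, the replicate block and only the groups compared, 0 with a minimum count of 50 (which left 3 members counted), 4 with no fold threshold or one of 0.5, and 1 to 2 without a library. At 6 h in PEO4 B it was 1 with a minimum count of 50 and 1 to 3 without a library. Between 6 h and 2 h in PEO4 B it was 1 with no fold threshold or one of 0.5. Between the lines at 2 h it was 2 under those thresholds and 0 to 1 without a library, and at 6 h 0 with a minimum count of 50. For the 2 h response it was 0 with that minimum and 0 to 1 without a library, and for the 6 h response 0 to 1 without a library. Library totals moved the median log2 change of all genes to -0.17 in PEO1 B at both times, and to -0.13 at 2 h and -0.19 at 6 h in PEO4 B.

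Under library totals RMRP at 2 h in PEO1 B was -0.034 and RN7SL2 at 6 h -0.0024. The replicate block gave -0.0021 for RN7SL1 at 6 h against 2 h in PEO1 B. Replicate numbers did not pair the libraries (r from -0.158 to 0.134), and beside RPPH1 at 2 h in PEO4 B the block ended no call. For the 2 h response, RPPH1 was -0.012 under DESeq2's size factors, -0.047 by DESeq2's Wald test and -0.0099 with only the groups compared. Leaving out a library turned these values, given from lowest to highest. Between PEO4 A and PEO1 A, RN7SK was -0.54 to 0.95, RN7SL1 -0.51 to 0.88, RN7SL2 -0.51 to 1.04, RPPH1 -0.29 to 1.5. Between the untreated B lines, RN7SL2 was -0.47 to 0.19, RPPH1 -1.22 to 0.86. In PEO1 B at 2 h, RMRP was -0.18 to 0.35. In PEO1 B at 6 h, RN7SL2 was -0.094 to 0.54, RMRP -0.015 to 0.57, RPPH1 -0.051 to 0.53. In PEO1 B at 6 h against 2 h, RN7SK was -0.53 to 0.20, RN7SL1 -0.25 to 0.16, RMRP -0.13 to 0.44. In PEO4 B at 6 h against 2 h, RPPH1 was -0.051 to 0.51. Between the lines at 2 h, RPPH1 was -0.052 to 0.51. Between the lines at 6 h, RN7SL1 was -0.39 to 0.019, RN7SL2 -0.20 to 0.15. For the 2 h response, RN7SL1 was -0.080 to 0.49, RN7SL2 -0.32 to 0.34, RPPH1 -0.55 to 1.52. For the 6 h response, RN7SL1 was -0.17 to 0.40, RN7SL2 -0.28 to 0.38.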
